A study of Mus musculus with 4 samples.

Results

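Mitogen-activated protein (MAP) kinases and the dual-specificity phosphatases that switch them off were compared between CD8α+ and CD8α− dendritic cells of the mouse spleen. The members were the probe sets that the platform annotation assigns to a single gene symbol made of Mapk, Map2k, Map3k, Map4k or Dusp and a number. This rule took 134 of 45037 probe sets, which belonged to 59 of 18193 named genes. Each group held 2 arrays of cells from C57BL/6 mice, and the labels give no treatment, age or genotype beyond the strain. They leave unsaid whether replicates are different animals, so a p-value here reflects how far these arrays scatter, which may be technical. The CD8α− cells are defined only by the lack of CD8α, and the labels do not describe how either population was sorted.

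MAP kinases are the last step of a relay of kinases. A MAP3 kinase, which a MAP4 kinase can activate, phosphorylates a MAP2 kinase. This MAP2 kinase then phosphorylates a threonine and a tyrosine of the MAP kinase. The branches are named after their last kinase: ERK, known for growth factor and Toll-like receptor signals, and JNK and p38, known for stress and inflammatory signals. Dual-specificity phosphatases remove both phosphates again. In dendritic cells the branches are known to act in maturation and in the production of cytokines such as interleukin-12. Arrays read messenger RNA, so the values below say nothing of phosphorylation.

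The arrays carried the labels' difference: Cd8a read 2014 and 2335 on the CD8α+ arrays and 15.2 and 27.0 on the CD8α− arrays, in the normalized signal used throughout (replicate 1 first, then replicate 2). The defining markers of dendritic cells Itgax, Flt3 and Zbtb46 were above background on every array. CD8α− replicate 2 stood apart, with a median deposited signal of 17.4 against 22.9 to 35.1 on the other arrays and a Gapdh control ratio, 3′ over 5′ end, of 10.7 against 1.53 to 2.02, while its Actb ratio was 0.76 against 1.62 to 1.69. The correlation of log2 signals across tested probe sets, which are not independent replicates, was 0.955 within the CD8α+ pair and 0.835 within the CD8α− pair. Markers of other cell types differed as well: 6 of 9 tested natural killer cell markers, 3 of 7 plasmacytoid dendritic cell markers, 3 of 5 monocyte markers, 3 of 6 red pulp macrophage markers and 5 of 8 neutrophil markers were dimmer in CD8α+ cells at an unadjusted p under 0.05, and 1 macrophage marker was brighter. The summed signal of the natural killer list was 765 to 965 in CD8α+ and 2668 to 4121 in CD8α− arrays. That of the plasmacytoid list was 1071 to 1210 and 2021 to 2709, and that of the monocyte list 506 to 532 and 1987 to 2746. Single genes weighed heavily in the CD8α− sums, Tcf4 in the plasmacytoid list (1198 and 1808) and Csf1r in the monocyte list (1305 and 1886). In the natural killer list Klrd1 (1638 and 1135) and Gzma (1555 and 274) did so. Csf1r was also on a list of dendritic cell markers. Siglech, a plasmacytoid marker, had overlapping groups, and another, Ccr9, was higher on both CD8α+ arrays (104 and 95.8 against 66.1 and 4.04). The macrophage list summed to 1030 to 1169 and 1415 to 1977, and the neutrophil list to 7107 to 7734 and 11957 to 14791. S100a8 (5542 and 4465) and S100a9 (6984 and 4517) weighed heavily in the neutrophil sums of CD8α− cells. Of 11 macrophage markers, 5 and 8 were above background on the CD8α+ arrays and 5 and 7 on the CD8α− arrays. Adgre1 (343 and 366) and Spic (408 and 666) were among them in CD8α− cells, and Cd163, Mertk, Cd5l and C1qc were on neither CD8α− array. Of 9 neutrophil markers, 8 and 8 against 8 and 6 were above background, Camp and Mpo among them and Elane on no array. The part of these cells and of the RNA of CD8α− replicate 2 in the results below was not tested. Fewer cells of a type and less RNA per cell cannot be told apart in such bulk samples.

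Of 30 tested kinases of the relay, 6 were brighter in CD8α+ cells, 1 was dimmer and 23 were not called, with a median log2 difference of 0.64. Of 16 tested phosphatases 1 was brighter and 3 were dimmer, leaving 12 without a call, and their median was 0.05. The phosphatases Dusp16, Dusp6 and Dusp8 and the p38 kinase Mapk11 were brighter in CD8α− cells, by 2.26-fold to 4.46-fold. Map2k5, Map2k6, Map3k9, Map3k20, Map4k5, the p38 kinase Mapk13 and the atypical phosphatase Dusp19 were brighter in CD8α+ cells. These 11 genes had an unadjusted p under 0.05, as 16% of all tested genes did, and none passed after adjustment over all genes. Each difference below is a log2 value, CD8α+ minus CD8α−, followed by its standard error from limma (n = 2 arrays a group).

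Of the 59 genes, 46 had a probe set bright enough to be tested (mean normalized signal of at least 23.0), and each gene was represented by its brightest tested probe set. Since a gene can pass this filter through 1 group alone, the counts describe the tested members and are no support for a trend. With limma, 7 of 46 were brighter in CD8α+ cells at an unadjusted p under 0.05, where 7.13% of all tested genes were, and 4 were dimmer, where 8.82% were. After Benjamini-Hochberg adjustment over 10532 genes 0 members and 0% of all genes passed, 1680 genes having an unadjusted p under 0.05. The arrays of the groups did not overlap for 29 members, 20 brighter and 9 dimmer, against 53.9% of all genes, 25.6% brighter and 28.3% dimmer. The median difference of the tested members was 0.53 and that of all genes was -0.02. The split of the calls moved with the scale: it was 7 brighter and 1 dimmer on the deposited scale, 3 and 4 on a common trimmed mean and 22 and 1 with median centring, where the median gene stood at 0.67, -0.18 and 0.69. Relative to those shifts the median of the members was 0.60, 0.64 and 0.59. Of the 11 calls, 5 brighter and 1 dimmer were kept on the deposited scale. The trimmed mean kept 2 and 4, and median centring 7 and 1. Single arrays weighed heavily. Leaving out either CD8α+ array gave 0 brighter and 1 dimmer, so that 10 of the 11 calls, all but that of Dusp16, were lost, and 5.25% (replicate 1 left out) or 6.23% (replicate 2 left out) of all genes were called. With CD8α− replicate 1 left out the counts were 24 and 6, and 44.1% of all genes were called. With CD8α− replicate 2 left out they were 9 and 7, and 28.2% of all genes were called. In that last setting the median of the members was 0.16.

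**Figure D1:**
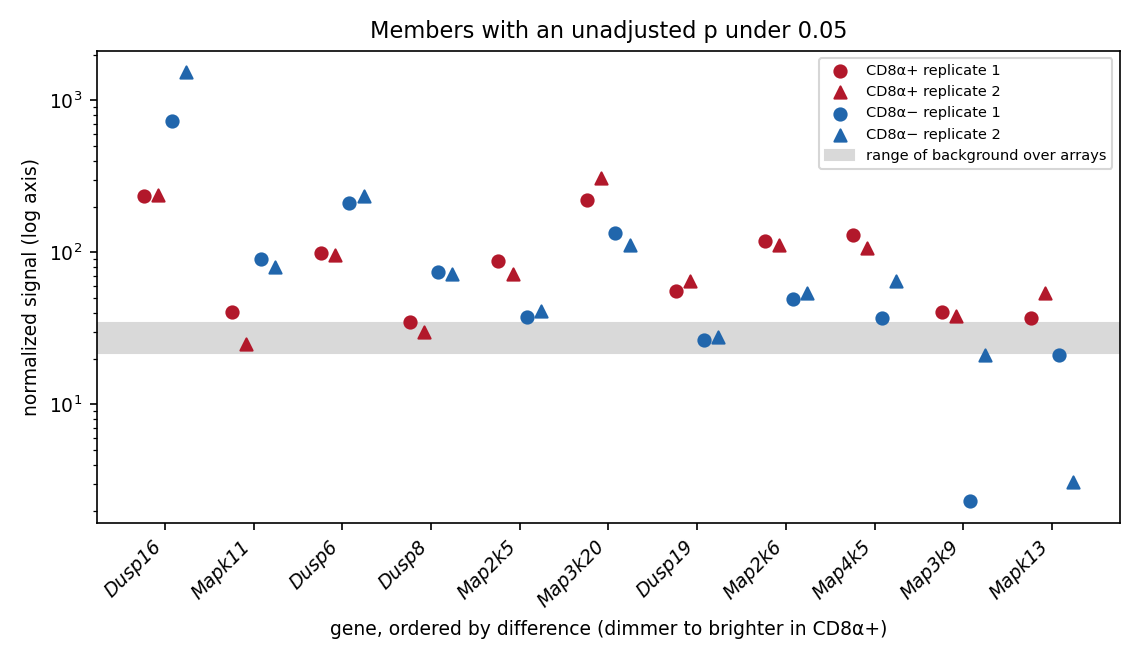
Normalized signal (log axis) of the 11 members with an unadjusted p under 0.05 on each of the 4 arrays, with the range over arrays of the background, the highest Bacillus control, in grey. For each gene both CD8α+ arrays lie on the same side of both CD8α− arrays; the probe sets shown for Map3k9, Mapk13 and Dusp19 did not exceed background in CD8α− cells.

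Among the 9 tested phosphatases dedicated to MAP kinases, 3 were dimmer in CD8α+ cells and 0 brighter. Of all tested genes 8.82% were dimmer and 7.13% brighter, the shares to set beside each small role group below. The 3 dimmer phosphatases included 2 of the 3 that prefer JNK and p38. Dusp16, a phosphatase of JNK and p38 also called MKP-7, read 235 and 240 on the CD8α+ arrays and 732 and 1533 on the CD8α− arrays. Both CD8α− arrays were higher, by 4.46-fold in the mean (-2.16 ± 0.47, adjusted p = 0.170). The deposited signals, before any matching of arrays, were 322 and 344 against 781 and 794, so the groups were apart on that scale too. A further Dusp16 probe set read 72.8 and 81.4 against 151 and 127, apart in the same direction but not called (-0.84 ± 0.32). Dusp16 was the member whose call was kept in each of 14 processing alternatives, with differences from -2.69 to -1.24.

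Dusp8, which acts on the same kinases, read 34.7 and 30.0 on the CD8α+ arrays, close above background, and 74.3 and 71.8 on the CD8α− arrays. The difference was -1.18 ± 0.31 (2.26-fold, adjusted p = 0.218). Dusp10, also known as MKP-5 and also a phosphatase of p38 and JNK, read 107 and 148 against 151 and 104, and the groups overlapped (0.00 ± 0.39). The difference of Dusp8 was not called on the deposited scale (-0.85) or with median centring (-0.85).

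Of the cytoplasmic phosphatases that prefer ERK, Dusp6 was brighter in CD8α− cells. Dusp6, a feedback brake whose transcription is known to follow ERK activity, read 98.6 and 96.8 on the CD8α+ arrays and 212 and 234 on the CD8α− arrays. The replicates of each group lay close together, and the difference was -1.19 ± 0.31 (2.28-fold, adjusted p = 0.211). On the deposited scale it was -0.33 and was not called, and with median centring it was -0.33 as well. Dusp7, of the same class, did not exceed background on either CD8α− array and had a positive difference (0.84 ± 0.40) that was not called. This rests on its only tested probe set, and its others exceeded background on no array. Dusp9 was too dim to be tested.

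The nuclear phosphatases, known as immediate early genes that shut off the signal that induced them, were not called. Dusp1, or MKP-1, a brake on p38 in inflammation, read 3499 and 3996 on the CD8α+ arrays, 4979 on CD8α− replicate 1 and 1320 on CD8α− replicate 2. The groups overlapped, and the difference of 0.54 ± 0.71 turned to -0.41 without CD8α− replicate 2. Dusp2 read 243 and 287 against 293 and 294 (-0.15 ± 0.31), and its sign changed on the deposited scale, on a common trimmed mean and with median centring. Dusp5, a nuclear phosphatase of ERK, read 4416 and 4154 against 3785 and 1978 (0.65 ± 0.44). Dusp4 read 93.7 and 90.9 in CD8α+ cells, but 2.30 on CD8α− replicate 1 and 77.9 on CD8α− replicate 2. The CD8α− replicates thus differed by more than the group means did (1.98 ± 1.20, adjusted p = 0.470).

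The stretch of 150 bases before the start of 6 called genes is printed to show the sequence at which transcription of these genes begins. RefSeq promoters on GRCm38.p6, which run from 250 bases before to 50 bases after a start, were found for 48 of the 59 genes. The promoters of a chromosome were left out of the search. Searched on both strands were AP-1 (TGANTCA), the cyclic AMP response element or CRE (TGACGTCA), an Ets site (CCGGAAG), the GC box (GGGCGG), an interferon-stimulated element (GAAA, any 2 bases, GAAA) and an NF-kB site (GGGA, any base, TT, any base, CC). Dusp16, Dusp6, Dusp8 and Mapk11 were dimmer and Mapk13 and Map4k5 brighter in CD8α+ cells. Capitals mark matches to these motifs.
Dusp16 (chr6:134792629-134792778, minus strand): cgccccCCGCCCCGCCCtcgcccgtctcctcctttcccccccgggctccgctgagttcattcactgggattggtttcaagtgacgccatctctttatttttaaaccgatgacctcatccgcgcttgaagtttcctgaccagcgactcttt
Dusp6 (chr10:99263081-99263230, plus strand): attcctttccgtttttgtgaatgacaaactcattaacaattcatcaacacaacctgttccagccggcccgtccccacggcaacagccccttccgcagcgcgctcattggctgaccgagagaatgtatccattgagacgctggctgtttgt
Dusp8 (chr7:142095285-142095434, minus strand): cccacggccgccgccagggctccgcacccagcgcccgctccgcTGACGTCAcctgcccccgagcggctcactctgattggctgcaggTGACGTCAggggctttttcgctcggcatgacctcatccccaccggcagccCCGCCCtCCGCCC
Mapk11 (chr15:89149607-89149756, minus strand): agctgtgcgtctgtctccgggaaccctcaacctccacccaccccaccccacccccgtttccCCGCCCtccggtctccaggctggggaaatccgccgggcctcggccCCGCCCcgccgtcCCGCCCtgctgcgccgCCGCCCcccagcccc
Mapk13 (chr17:28769167-28769316, plus strand): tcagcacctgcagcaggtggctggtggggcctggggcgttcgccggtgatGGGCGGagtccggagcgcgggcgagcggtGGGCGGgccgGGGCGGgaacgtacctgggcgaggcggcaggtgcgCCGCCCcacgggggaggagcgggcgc
Map4k5 (chr12:69893164-69893313, minus strand): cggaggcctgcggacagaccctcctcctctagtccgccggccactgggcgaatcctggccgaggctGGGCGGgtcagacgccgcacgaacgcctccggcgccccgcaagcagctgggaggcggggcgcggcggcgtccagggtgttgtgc
Dusp8 holds 2 CRE matches in this stretch. Of the 32851 promoters searched, each over its full 300 bases, 1.79% hold at least 1. Of 62 member promoters 3 held a CRE match, those of Dusp1, Dusp8 and Mapk10. GC boxes stood in 61.3% of member promoters and in 35.7% of all promoters, with a median GC content of 63.8% and 52.7%. None of the 4 promoters of genes dimmer in CD8α+ cells held an AP-1, Ets, interferon-stimulated or NF-kB match. Of the 9 promoters of brighter genes, 1 held an AP-1 match and 0 an Ets, interferon-stimulated or NF-kB match. Such matches stood in 7.81%, 8.86%, 3.44% and 1.20% of all promoters searched. At these rates a count of 0 in so few promoters says nothing about the genes. All the matches are of letters in a short window and show no binding.

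The p38 kinases differed among themselves. Mapk11, p38β, read 40.7 and 25.1 on the CD8α+ arrays and 90.2 and 79.9 on the CD8α− arrays, both of which were higher (-1.41 ± 0.39, 2.66-fold, adjusted p = 0.225). The Mapk11 call was lost in 5 of 13 alternatives, among them the deposited scale (-1.05), median centring (-1.05) and the fit without CD8α− replicate 1 (-1.32). Mapk13, p38δ, went the other way, with 37.2 and 53.7 against 21.2 and 3.07. It did not exceed background on either CD8α− array, so the fold is at least 1.43 (1.88 ± 0.64, adjusted p = 0.280). The Mapk13 call was lost in 8 of 13 alternatives, among them the deposited scale (1.75), a common trimmed mean (1.43) and the fit without CD8α− replicate 2 (1.08). Mapk14, p38α, the form best known in myeloid cells, read 1065 and 990 against 762 and 681 on its brightest probe set. Those signals were apart, but the difference of 0.51 ± 0.31 was not called (adjusted p = 0.470). Mapk12, p38γ, was too dim to be tested.

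Mapk14 was also the member whose probe sets disagreed in the calls themselves. A dim probe set read 47.2 and 54.0 against 4.92 and 13.4 (2.38 ± 0.44), not above background in CD8α− cells, and another read 51.4 and 41.8 against 101 and 95.8 (-1.08 ± 0.32). Both had an unadjusted p under 0.05, in opposite directions, so no direction is given for Mapk14.

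Neither JNK gene that could be tested was called. Mapk8, or JNK1, read 200 and 245 on the CD8α+ arrays, 200 on CD8α− replicate 1 and 70.8 on CD8α− replicate 2 (0.90 ± 0.59). Its 4 tested probe sets ranged from -0.38 to 0.90, with 2 of either sign. Mapk9, or JNK2, read 213 and 198 against 125 and 15.6, with the largest difference of any tested member (2.21 ± 1.05, adjusted p = 0.388). This value rests on CD8α− replicate 2: set against CD8α− replicate 1 alone the CD8α+ mean was higher by 0.71, and against CD8α− replicate 2 by 3.71. A different Mapk9 probe set read 108 and 144 against 51.2 and 88.6 (0.89 ± 0.43). Mapk10, the JNK gene known from neurons, was too dim to be tested.

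Of the remaining MAP kinases, Mapk6, the atypical ERK3, read 1177 and 1155 against 1476 and 754 (0.14 ± 0.44), and Mapk7, the ERK5 kinase, read 43.1 and 54.8 against 52.1 and 35.5 (0.18 ± 0.37). In both the groups overlapped. Mapk4 and Mapk15 were too dim to be tested.

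Of 6 tested MAP2 kinases, 2 were brighter in CD8α+ cells and 0 dimmer. Map2k6, an activator of p38, read 119 and 113 on the CD8α+ arrays and 49.2 and 53.9 on the CD8α− arrays. The replicates were close in both groups, and the difference was 1.17 ± 0.31 (2.25-fold, adjusted p = 0.216). It was called in 12 of 14 alternatives, the exceptions being those without CD8α+ replicate 1 (1.13) or without CD8α+ replicate 2 (1.21). Map2k3, also an activator of p38, read 814 and 767 against 684 and 470 (0.48 ± 0.35). Map2k5, which activates ERK5, read 87.9 and 71.6 against 37.4 and 41.4, and the CD8α+ arrays were both higher (1.01 ± 0.32, 2.02-fold, adjusted p = 0.264). Its 3 tested probe sets were all positive, from 0.65 to 1.01, but on those not standing for the gene the groups overlapped. The Map2k5 call was lost in 4 of 13 alternatives, among them a common trimmed mean (0.61).

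The activators of ERK, Map2k1 and Map2k2, stood on opposite sides of 0, and neither was called on the probe set that stands for it. Map2k1, or MEK1, read 268 and 242 in CD8α+ and 388 and 635 in CD8α− cells (-0.96 ± 0.39, adjusted p = 0.337), and its sign changed on the deposited scale and with median centring. Map2k2, or MEK2, read 95.9 and 137 against 84.7 and 72.0 (0.55 ± 0.36). A dimmer Map2k2 probe set read 51.4 and 48.2 against 28.8 and 16.3 and had an unadjusted p under 0.05 (1.20 ± 0.41), and the mean over probe sets was called (0.88). Map2k4, an activator of JNK, read 294 and 243 against 274 and 94.2, and the groups overlapped (0.73 ± 0.60). Map2k7 had no probe set that met the rule and was not analysed here.

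**Figure D2:**
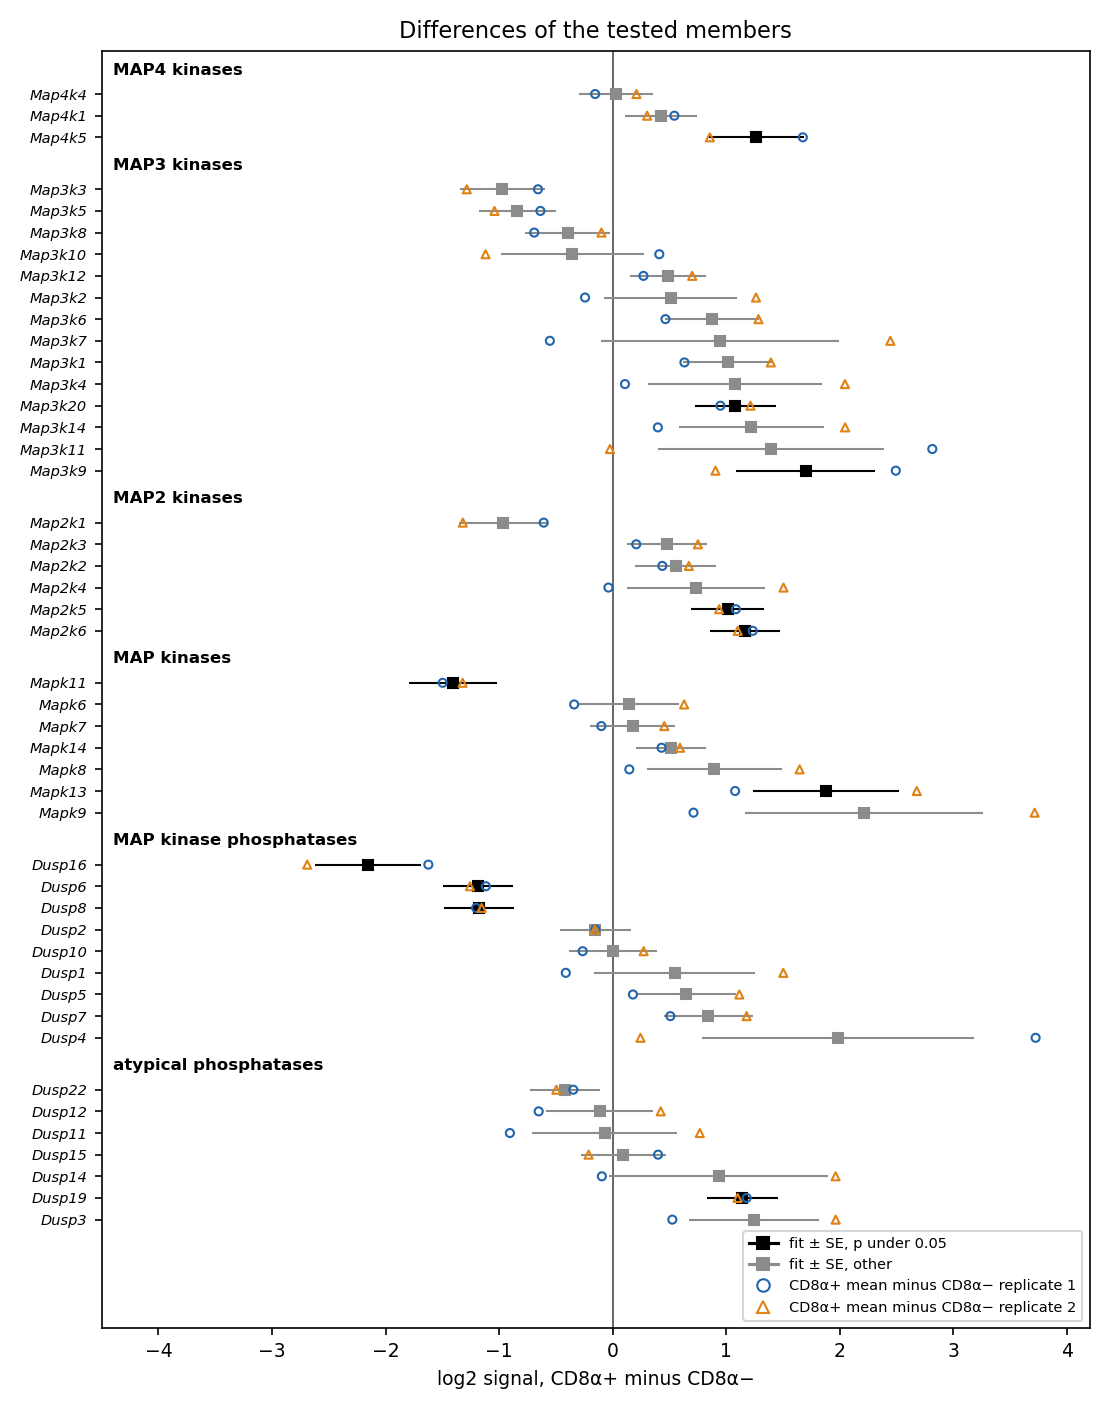
Difference in log2 signal, CD8α+ minus CD8α−, of the 46 tested members by role (squares, ± the standard error of the fit), with the CD8α+ mean set against each CD8α− array alone (circles and triangles). The widest gaps between circle and triangle are those of Dusp4, Map3k7, Mapk9 and Map3k11, and the 11 genes called (black) have both on the same side of 0.

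Among 14 tested MAP3 kinases, 2 were brighter in CD8α+ cells and 0 dimmer. Map3k20, or ZAK, a kinase activated by stalled ribosomes, read 220 and 309 on the CD8α+ arrays and 135 and 112 on the CD8α− arrays (1.08 ± 0.36, 2.11-fold, adjusted p = 0.271). Its other tested probe set was dim and leaned the other way (-0.86 ± 0.42), and averaged over both the difference was 0.11 and was not called. Without CD8α− replicate 2 the difference was 0.95 and was not called. Map3k9, the mixed-lineage kinase MLK1, read 40.7 and 38 against 2.31 and 21, and neither CD8α− array exceeded background. The fold is at least 1.26 (1.70 ± 0.61, adjusted p = 0.297), and the call was lost in 6 of 13 alternatives.

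The MAP3 kinases best known downstream of innate receptors were not called. Map3k8, or TPL2, which links Toll-like receptors to ERK, read 330 and 269 against 481 and 319, and the groups overlapped (-0.39 ± 0.37). Map3k7, or TAK1, which links the same receptors to JNK, p38 and NF-kB, read 389 and 391 in CD8α+ cells, 572 on CD8α− replicate 1 and 71.6 on CD8α− replicate 2. Those CD8α− arrays lay on either side of the CD8α+ pair (0.95 ± 1.05), and of its 6 tested probe sets 3 were positive and 3 negative. Map3k14, or NIK, the kinase of the non-canonical NF-kB branch, read 741 and 901 against 620 and 198 (1.22 ± 0.64, adjusted p = 0.417). Map3k1, or MEKK1, read 2794 and 2873 against 1829 and 1079 (1.01 ± 0.40, adjusted p = 0.326). For both the arrays were apart, with CD8α− replicate 2 the lower of its pair.

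Map3k5, or ASK1, a kinase that responds to oxidative stress, read 2324 and 2615 in CD8α+ and 3832 and 5072 in CD8α− cells. Both CD8α− arrays were higher, and the difference of -0.84 ± 0.34 did not reach an unadjusted p of 0.05 (adjusted p = 0.336), while a dimmer probe set gave -0.84 ± 0.31 and did. Map3k3, or MEKK3, read 318 and 286 against 476 and 735 (-0.97 ± 0.37, adjusted p = 0.320), and its tested probe sets had both signs. In Map3k4, or MEKK4, which is known to be activated by Gadd45 proteins, all 4 tested probe sets were positive, from 0.41 to 1.93, and 3 of them did not exceed background on either CD8α− array. The brightest of them, which stands for the gene, was not called (1.08 ± 0.77). Among those not above background in CD8α− cells, 2 had an unadjusted p under 0.05 (1.93 ± 0.47 and 1.80 ± 0.61). The remaining tested MAP3 kinases, Map3k2, Map3k6, Map3k10, Map3k11 and Map3k12, were not called, and Map3k21 was too dim to be tested.

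All 3 tested MAP4 kinases had positive differences, and 1 was called. Map4k5 read 131 and 107 on the CD8α+ arrays and 37.0 and 65.2 on the CD8α− arrays (1.26 ± 0.42, 2.40-fold, adjusted p = 0.272). Its 3 tested probe sets gave 1.26, 1.51 and 2.89, and on each of them both CD8α+ arrays were higher, though the last did not exceed background in CD8α− cells. The Map4k5 call was lost in 4 of 14 alternatives, among them a common trimmed mean (1.03). Map4k1, or HPK1, a blood cell kinase that restrains antigen receptor signals, read 141 and 154 against 101 and 119, apart but not called (0.42 ± 0.32). Map4k4 read 2078 and 2132 against 2343 and 1821, and the groups overlapped (0.03 ± 0.33).

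Of 7 tested atypical dual-specificity phosphatases, which lack the domain that docks on MAP kinases, 1 was called. Dusp19, known to bind JNK pathway kinases, read 55.4 and 64.7 on the CD8α+ arrays and 26.4 and 27.9 on the CD8α− arrays, where this probe set did not exceed background. The fold of the probe set is therefore at least 1.92 (1.14 ± 0.31, adjusted p = 0.225). A dimmer Dusp19 probe set read 41.7 and 24.7 against 16.3 and 37.3, above background on CD8α− replicate 2, and its groups overlapped (0.38 ± 0.56). The Dusp19 call was lost in 5 of 13 alternatives, among them a common trimmed mean (0.58) and the mean over probe sets (0.76). Dusp3, or VHR, was split by probe set: the brightest read 762 and 774 against 534 and 197 (1.24 ± 0.57) and was not called. Another read 70.3 and 87.5 against 164 and 147 (-0.98 ± 0.33) and had an unadjusted p under 0.05. Dusp22, which is known to act on the kinase Lck in T cells, read 273 and 275 against 348 and 386 (-0.42 ± 0.31). Dusp11, Dusp12, Dusp14 and Dusp15 had overlapping groups. The other atypical phosphatases, Dusp13, Dusp18, Dusp21, Dusp23, Dusp26, Dusp27 and Dusp28, were too dim to be tested. The highest normalized signal on any array ranged from 2.61 to 48.3 over the 13 members that were not tested.

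**Figure D3:**
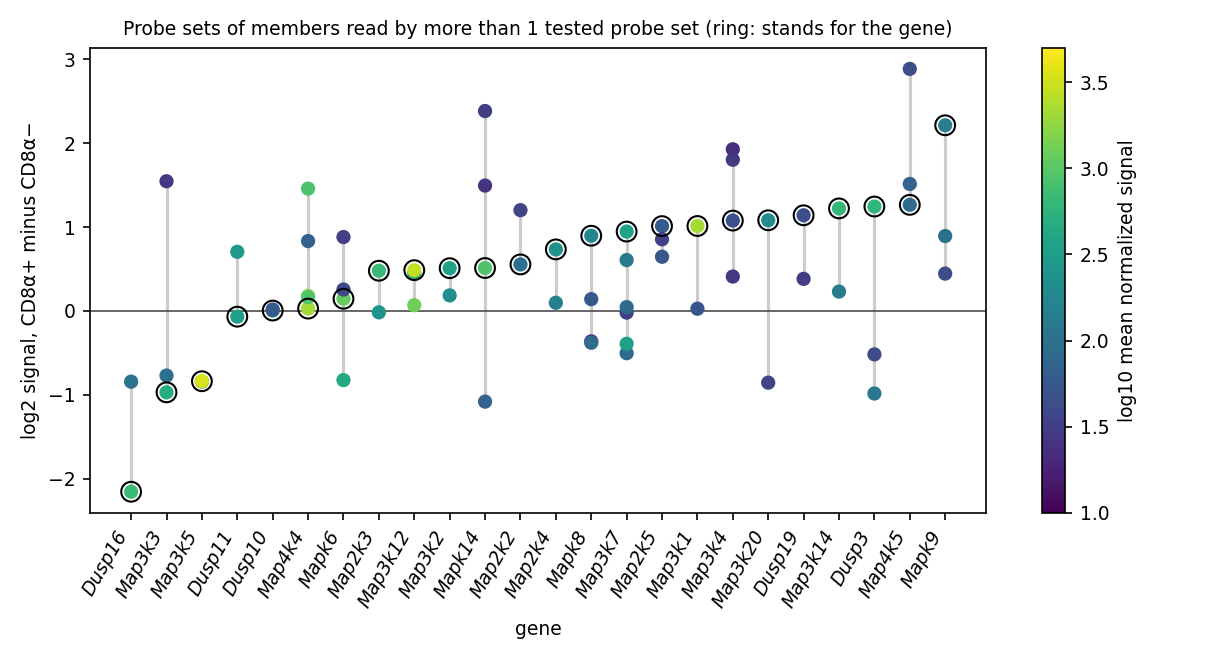
Difference in log2 signal, CD8α+ minus CD8α−, of every tested probe set of the 24 members read by more than 1, coloured by mean signal on a log10 scale, with a ring around the one that stands for the gene. In 15 genes all probe sets have the same sign, and in 9, Mapk14, Dusp3 and Map3k20 among them, they have both.

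Other genes of the pathway were counted in lists of 128 genes, of which 100 were tested. At an unadjusted p under 0.05, 3 were brighter and 12 dimmer in CD8α+ cells, and 85 were not called. Of all tested genes 7.13% were brighter and 8.82% dimmer, the shares to set beside the count of each list below. The median difference of the 100 genes was -0.20, against 0.53 for the members and -0.02 for all genes. Brakes on the pathway were represented by 12 tested genes, of which 2 were dimmer and 1 brighter. Spry2, a feedback inhibitor of Ras and ERK signals, read 71.1 and 66.9 in CD8α+ and 492 and 299 in CD8α− cells. Both CD8α− arrays were far higher (-2.48 ± 0.39, 5.56-fold, adjusted p = 0.118), the same side as Dusp6. Pea15a, which holds ERK in the cytoplasm, was dimmer (-1.08 ± 0.32), and Styx, a phosphatase-like protein without catalytic activity, was brighter (1.05 ± 0.31). Of 19 Ras, Raf and adaptor genes, 2 were dimmer, Rasgrp1, an exchange factor that loads Ras (-2.80 ± 0.45), and Nras (-0.96 ± 0.33). Rasgrp1 exceeded background on 1 of 2 CD8α+ arrays, so no fold is given.

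Downstream of p38, the kinase Mapkapk3 read 113 and 157 against 384 and 534, higher on both CD8α− arrays (-1.77 ± 0.38, 3.40-fold, adjusted p = 0.167). Its close relative Mapkapk2 read 240 and 220 against 220 and 98.4 (0.64 ± 0.49). Of the 7 tested kinases of this list 1 was dimmer and 0 were brighter. Among 15 tested scaffolds and binding partners, the stress-induced Gadd45g (-1.90 ± 0.40) and Gadd45a (-1.30 ± 0.36) were dimmer in CD8α+ cells. Mapk8ip3, a JNK scaffold known from axonal transport, was brighter, by at least 1.46-fold (2.21 ± 0.48).

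Of 20 tested immediate early targets, 2 were dimmer in CD8α+ cells and 0 brighter. Fosl2, an AP-1 subunit, read 989 and 1076 against 2403 and 3886 (-1.57 ± 0.38, 2.96-fold), and Ier2 read 137 and 137 against 276 and 353 (-1.19 ± 0.33). Fos (0.84 ± 0.68), Egr1 (0.01 ± 0.42) and Junb (-0.35 ± 0.48), also early genes, had overlapping groups. In 10 of the 20 both CD8α+ arrays were dimmer, and in 3 both were brighter, against 28.3% and 25.6% of all genes. The former include Jun (-0.97 ± 0.38), Nr4a1 (-1.09 ± 0.42) and Egr2 (-0.67 ± 0.33), none of them called. The latter were Zfp36 (0.52 ± 0.32), Klf6 (0.45 ± 0.33) and Egr3 (0.29 ± 0.34), also not called. Of 13 transcription factors that MAP kinases phosphorylate, Elk3 was dimmer (-1.26 ± 0.35). In the list of other STE20-like kinases, Stk26 (-1.46 ± 0.38) and Stk24 (-1.05 ± 0.31) were dimmer and Stk39 was brighter, by at least 3.18-fold (2.94 ± 0.67), of 14 tested. None of these genes passed after adjustment over all genes.

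**Figure D4:**
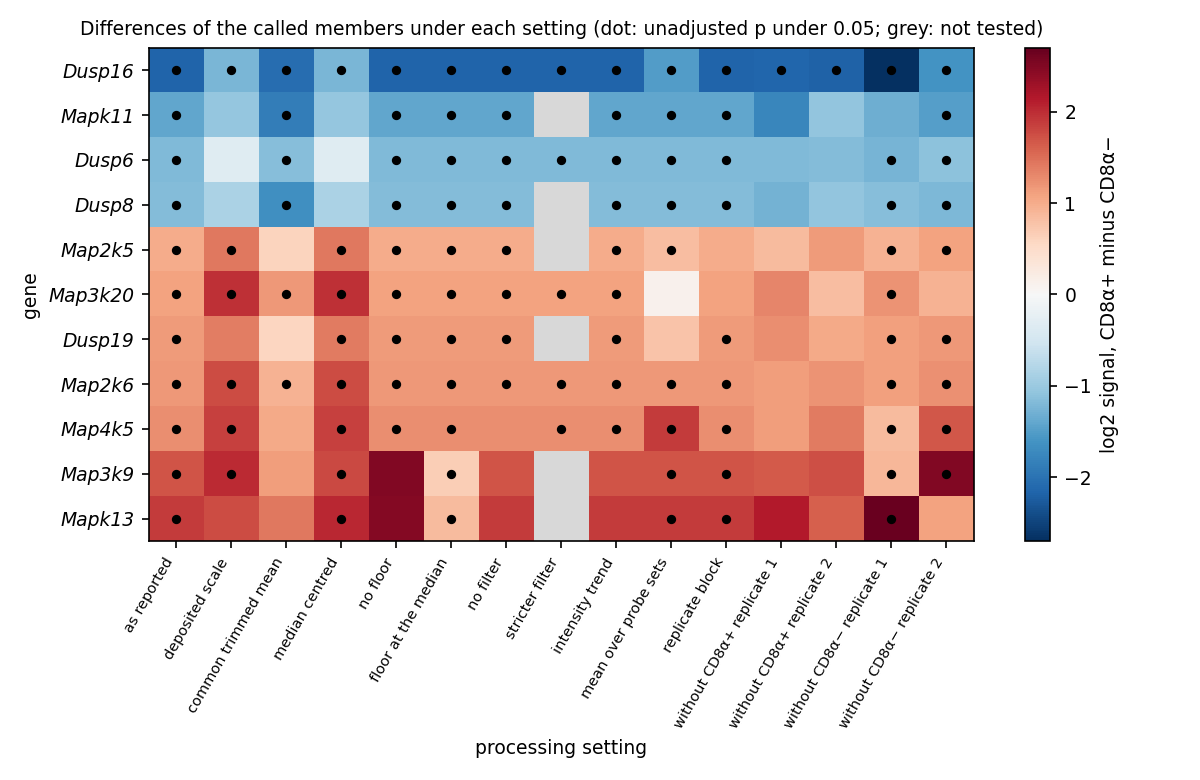
Difference in log2 signal, CD8α+ minus CD8α− (colour), of the 11 called members (rows) as reported and under each of 14 alternatives (columns), with a dot where the unadjusted p was under 0.05 and grey where the gene was not tested. No sign changed, and Dusp16 has a dot in every column.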

How the data were processed

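RNA was hybridised to Affymetrix mouse arrays; the design text and the labels describe different RNA extractions. The authors deposited intensity values, 1 linear signal per probe set and array, made with MAS5, per the submitters' processing notes. The deposited values were not on a common scale (mean after trimming 2% at each end of 48.7 to 127) and carry no detection calls, so the arrays were quantile normalized on the log2 scale, set to at least 6.99 (each array's 25th percentile, averaged) before taking log2. Of 45101 probe sets, 64 controls were left out after normalization, and 34945 of the others had 1 gene symbol, 932 several and 9160 none. Probe sets with a mean signal at or above the median, 23.0, were tested: 22519 probe sets and 10532 genes. A gene took the values of its brightest tested probe set, leaving out names ending in _x_at where it had another. Dusp7 had no other tested probe set and took the values of a probe set so named. A single limma model (version 3.58.1, R 4.3.3; eBayes with no trend; 2 residual and 2.48 prior degrees of freedom; two-sided) covered all tested probe sets, with Benjamini-Hochberg adjustment at 0.05 over genes. Background was the highest Bacillus control of each array, 21.8 to 34.5 after normalization. Background was judged on the probe set that stands for the gene. A group with no array above it has only a bound, and its fold is "at least" the brighter mean over the higher of background and own signal. With 1 such array of 2, no fold is given. The number of arrays limits the precision. The fit was tested on simulated data. Tables were made with Python 3.11.15 and pandas 2.3.3, figures with matplotlib 3.10.9. The values named are those of each member with an unadjusted p under 0.05 and of a fixed set of core members, with a few others (Dusp3, Dusp7, Dusp22, Map3k3, Map3k4, Map4k4, Mapk6 and Mapk7) in their role groups. For the other lists they are those of the genes with the smallest p. A few more (Mapkapk2, Fos, Egr1, Egr2, Egr3, Jun, Junb, Klf6, Nr4a1 and Zfp36) were named after their values were seen. Members and lists were chosen with earlier results of these data known.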

Additional observations from a re-analysis of the deposited data

How the results depend on the processing

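With 2 arrays per group, the counts depend on single arrays and on the scale. The genes past an adjusted p of 0.05, 0 as reported, numbered 232 with median centring, 61 with the stricter filter (75th percentile), 73 with an intensity trend, 1 with the floor at the median, and 0 to 1223 when 1 array was left out, where the lone array is assumed to vary like the other pair. Members brighter in CD8α+ cells, 7 as reported, were 3 on a common trimmed mean, 22 with median centring, 4 with the stricter filter and 0 to 24 without 1 array. Members dimmer, 4 as reported, were 1 on the deposited scale and with median centring, 7 with the floor at the median and with an intensity trend, 8 with no filter and 1 to 7 without 1 array. The cause was not tested. With a replicate block 15 genes passed the adjusted p, and 7 members were brighter and 4 dimmer. Of the calls as reported, 5 brighter and 4 dimmer were kept there. Arrays of the same replicate number share only a number: their deviations from the group means correlated at 0.03. Of 399 further values, for 29 named members under up to 14 alternatives, 309 stayed on their side of the threshold, 47 lost a call and 43 gained one. The median of the 46 tested members moved on the deposited scale (1.27) and with median centring (1.27). The sign of Dusp1, Dusp2, Dusp10, Map2k1, Map2k4, Map3k7 and Map3k8, none of them called, changed in 1 to 3 alternatives each. Signal over background limits the probe sets that stand for Dusp19, Map3k9 and Mapk13, which did not exceed it in CD8α− cells.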
